A study of Mus musculus with 12 samples.

Results

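The 9 genes described here encode parts of the plasminogen system and of the tissue factor pathway in the mouse: Plau, Plat, Plaur, Serpine2, Serpinb2, F3, Thbs1, Thbd and Procr. They were taken by symbol from the 54532 genes counted in each library, and all 9 were found. The libraries came from colon total RNA of male C57BL/6 mice, which arrived at 6 weeks of age and were adapted for 1 week, 3 mice in each of 4 groups. The Con group had no DSS. The DSS group drank 3% (w/v) dextran sulfate sodium, a polymer that injures the colonic epithelium, for 5 days. The UA+DSS and DSS+UA groups drank the same DSS and were gavaged daily with ursolic acid (UA), a triterpenoid of plants, at 200 mg/kg. UA was begun 1 day before DSS and given for 7 days in the UA+DSS group (prevention), and was begun 3 days after the start of DSS and given for 4 days in the DSS+UA group (treatment). These days are from the methods of the study, and its discussion gives 9 and 5 days. The methods of the study describe vehicle gavage for the Con and DSS groups, whereas the labels call Con untreated. None of the 4 groups was given UA without DSS, so UA was measured only in colons that also met DSS. Libraries carry the name of their group and their replicate number, so that DSS 2 is replicate 2 of the DSS group.

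The plasminogen system dissolves fibrin and clears extracellular matrix. Urokinase (Plau), held at the cell surface by its receptor (Plaur), and tissue plasminogen activator (Plat) cut plasminogen into the protease plasmin, and serpins such as protease nexin-1 (Serpine2) and plasminogen activator inhibitor 2 (Serpinb2) trap the activators. Tissue factor (F3), the cell-surface receptor of factor VII, starts the clotting that lays fibrin down, while thrombomodulin (Thbd) and the endothelial protein C receptor (Procr) turn thrombin toward activation of the anticoagulant protein C. Thrombospondin 1 (Thbs1) is a matricellular protein that binds CD47 and can activate latent TGF-beta. In the injured gut these genes are known from wound closure, leukocyte entry and fibrin deposits in the mucosa.

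Promoters are shown because those of F3 and Plaur are known for sites of AP-1, the Fos and Jun factor that binds TGANTCA. RefSeq windows on GRCm38.p6 were at hand for 5 of the 9 genes (Plaur, Serpine2, Serpinb2, F3 and Procr). TGANTCA, which reads the same on both strands, was searched in the 250 bases before each start. It was found in 4 of the 5 genes and in 2217 of 32851 promoter windows of the same length (6.75%). The first share counts genes, of which Serpinb2 had 2 windows, and the second counts windows. Sites in F3 and Plaur were also known before the search, so these shares do not measure an enrichment. The F3 window held 2 copies, 146 and 135 bases upstream of the start, where 0.338% of all windows held 2 or more. Plaur had 1 copy 69 bases upstream, Serpinb2 1 copy 94 bases upstream and Procr 1 copy 154 bases upstream of its start, and Serpine2 had none. These distances are from the RefSeq start. For Procr that start (155751217) lies beyond the GENCODE start (155751117), so its motif is nearer the end of the sequence printed below. Capitals mark TGANTCA in the plus-strand sequences below, written 5′ to 3′ and ending at the start of the GENCODE gene. These letters are a description and not a bound site. Below, Plaur and Serpinb2, with the motif, and Serpine2, without it in this window, were called raised in DSS against Con. F3 and Procr, with the motif, were not called there. A link between the motif and these changes was not tested.
F3 promoter, chr3:121723287-121723536: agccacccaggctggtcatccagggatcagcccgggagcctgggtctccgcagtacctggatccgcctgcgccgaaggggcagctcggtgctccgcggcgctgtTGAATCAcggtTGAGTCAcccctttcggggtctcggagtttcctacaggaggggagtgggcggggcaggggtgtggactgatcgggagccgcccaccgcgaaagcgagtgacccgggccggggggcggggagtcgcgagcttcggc
Plaur promoter, chr7:24462233-24462482: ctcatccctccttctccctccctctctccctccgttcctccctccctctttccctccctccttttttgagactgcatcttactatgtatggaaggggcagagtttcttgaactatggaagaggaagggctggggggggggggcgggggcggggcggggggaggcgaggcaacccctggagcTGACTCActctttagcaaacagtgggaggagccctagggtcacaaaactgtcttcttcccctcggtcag
Serpinb2 promoter, chr1:107511173-107511422: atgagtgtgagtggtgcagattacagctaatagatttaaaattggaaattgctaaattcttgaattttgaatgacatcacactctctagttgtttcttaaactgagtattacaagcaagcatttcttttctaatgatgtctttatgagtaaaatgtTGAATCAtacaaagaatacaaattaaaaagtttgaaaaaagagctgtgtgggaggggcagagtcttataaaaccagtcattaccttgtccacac
Procr promoter, chr2:155750967-155751116: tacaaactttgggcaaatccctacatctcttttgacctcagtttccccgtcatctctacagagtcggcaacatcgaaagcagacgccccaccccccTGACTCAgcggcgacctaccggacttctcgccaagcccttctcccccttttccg

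Values are CPM, counts scaled by edgeR's TMM method to a library of fixed size, and each library held 15566216 to 19498383 counts. DSS 2 stood apart by neutrophil genes: the summed level of 9 markers was 17995 CPM in DSS 2, 618 in DSS 1 and 825 in DSS 3, against 1.39 to 2.19 in Con, 14.6 to 75.0 in UA+DSS and 134 to 690.5 in DSS+UA. Macrophage and monocyte markers (9 genes) summed to 123 to 243 CPM in Con, 663 to 3078 in DSS, 201 to 392 in UA+DSS and 278 to 670.4 in DSS+UA. Fibroblast markers (8 genes) gave 1239.5 to 2002, 3444 to 7176, 713 to 1761 and 1014 to 2484 CPM in the same order, and endothelial markers (8 genes) 172 to 223, 257 to 432, 128 to 151 and 109 to 112. Colon epithelium markers (8 genes) summed to 9075 to 22536 CPM in Con, 4787 to 10526 in DSS, 18849.7 to 23016 in UA+DSS and 10250.4 to 14923 in DSS+UA, so the labelled tissue was present in all 12 libraries. Squamous epithelium markers (10 genes, Sprr3 at 0 in every library) summed to 3.74 to 6.26 CPM in Con, 17.7 to 62.2 in DSS, 4.81 to 5.31 in UA+DSS and 11.9 to 36.4 in DSS+UA. In the same order platelet markers (7 genes, Gp1bb at 0) gave 7.32 to 18.9, 35.1 to 60.1, 8.40 to 20.6 and 14.2 to 25.1 CPM, mesothelium markers (5 genes) 2.02 to 5.19, 13.2 to 55.5, 5.25 to 9.17 and 8.78 to 17.1, and smooth muscle markers (6 genes) 1094 to 3467, 661 to 1454, 1124 to 2436 and 436 to 866. Of these lists, edgeR called raised in DSS against Con 9 of 9 neutrophil, 7 of 9 macrophage and 6 of 8 fibroblast genes. Also raised were 4 of 8 endothelial, 3 of 4 tested squamous, 3 of 4 tested mesothelium and 2 of 4 tested platelet genes. Lowered were 2 of 8 colon epithelium genes, where 13.9% of all tested genes were raised and 12.6% lowered. Neutrophil, squamous and mesothelium markers were low in Con. Such genes can pass a filter on low counts through DSS alone, which favours a raised call. In UA+DSS against DSS edgeR called lowered 8 neutrophil, 6 macrophage, 5 fibroblast, 7 endothelial, 3 squamous, 2 platelet and 2 mesothelium genes. It called raised 3 of colon epithelium, and over all tested genes 10.5% were lowered and 8.21% raised. In DSS+UA against DSS it called lowered 3 fibroblast, 7 endothelial and 1 mesothelium gene and raised 1 of colon epithelium. Over all tested genes 5.0% were lowered there and 2.54% raised. No smooth muscle gene was called in these comparisons. A colon position score took the average log2 CPM of Hox genes used near the rectum and subtracted that of Hox genes used near the caecum. It was 5.53, -3.03 and -1.83 in Con, 3.10, 1.35 and 0.37 in DSS, -4.88, -5.70 and -4.16 in UA+DSS, and 4.11, 4.47 and 5.06 in DSS+UA. The scores of UA+DSS and DSS did not overlap, nor did those of DSS+UA and DSS, so UA treatment and the stretch of colon sampled cannot be told apart. The part of these cell types in the results below was not tested, and in bulk colon a change in the number of cells of a type cannot be told apart from a change in RNA per cell.

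**Figure D1:**
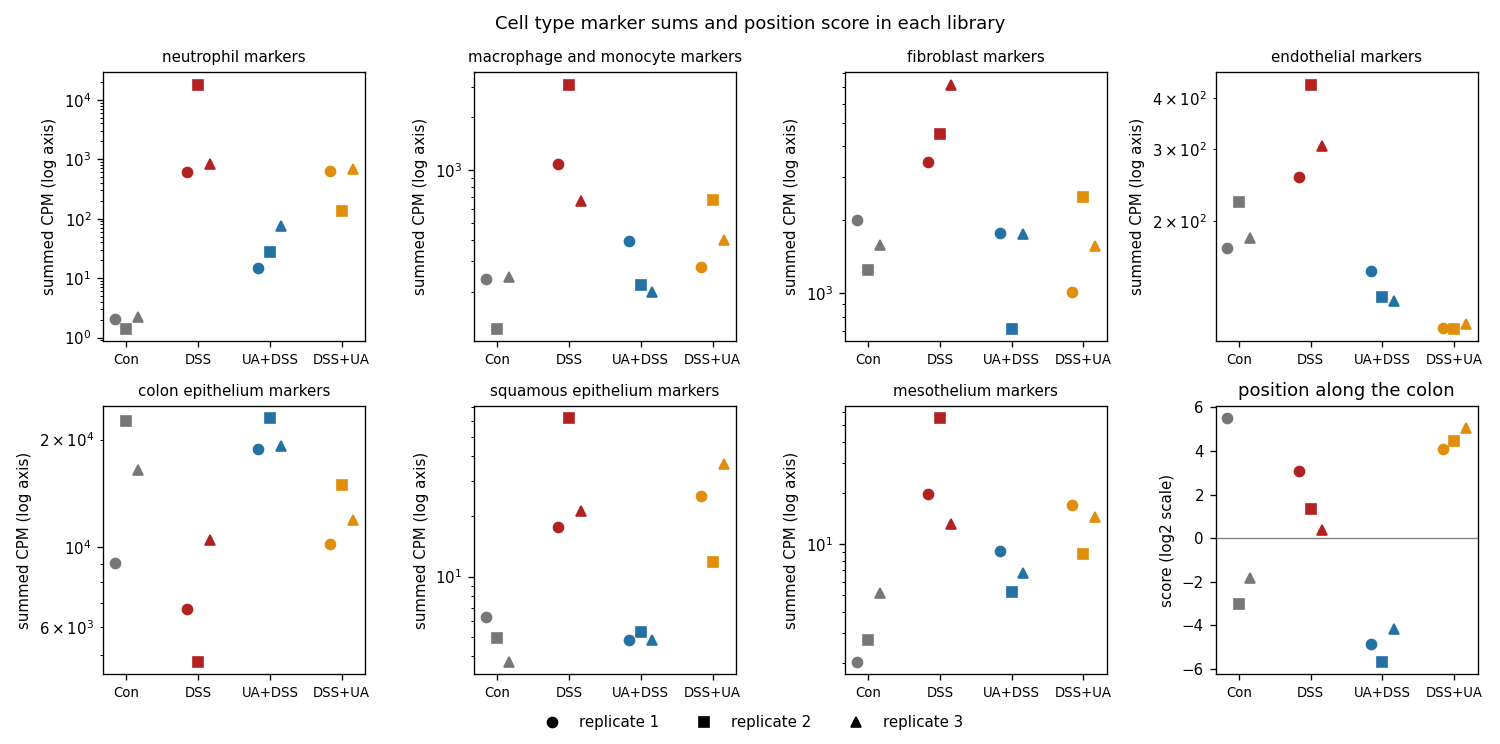
Summed CPM of marker genes (log axis) and the colon position score (log2 units, linear axis), 1 point for each of the 12 libraries by group. DSS 2 reaches 17995 CPM of neutrophil markers while the other DSS libraries lie at 618 and 825, and the UA+DSS scores of -5.70 to -4.16 lie below those of every other library.

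Plau, Plat and Plaur, the activators and the urokinase receptor, rose together in DSS. Plau (urokinase, ENSMUSG00000021822, 14:20836660-20843385) had 29.8, 26.7 and 22.2 CPM in Con 1, 2 and 3 and 44.4, 105 and 77.0 CPM in DSS 1, 2 and 3. Every DSS library lay above every Con library, at means of 75.5 ± 30.5 against 26.2 ± 3.79 CPM (SD, n = 3). The log2 fold change was 1.52 (SE 0.33, edgeR adjusted p = 0.00868). Plat (tissue plasminogen activator, ENSMUSG00000031538, 8:22757727-22782844) had 9.88, 5.82 and 11.1 CPM in Con and 48.9, 116 and 33.3 CPM in DSS. The lowest DSS library held far more than the highest Con library, and the log2 fold change was 2.89 (SE 0.42, edgeR adjusted p = 0.00236). Plaur (the urokinase receptor, a protein tethered to the membrane by a lipid anchor, ENSMUSG00000046223, 7:24462484-24475968) had 6.31, 9.10 and 8.88 CPM in Con and 55.4, 529 and 45.1 CPM in DSS. DSS 2, the library rich in neutrophil markers, held 10.5-fold the mean of DSS 1 and DSS 3. The log2 fold change of Plaur was 4.70 (SE 0.92, edgeR adjusted p = 0.00655), the highest fitted for any of these genes that Con libraries expressed. Without DSS 2 the log2 fold changes were 1.21 for Plau, 2.20 for Plat and 2.63 for Plaur, and all 3 calls stood (edgeR adjusted p = 0.026, 0.00129 and 0.0025).

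**Figure D2:**
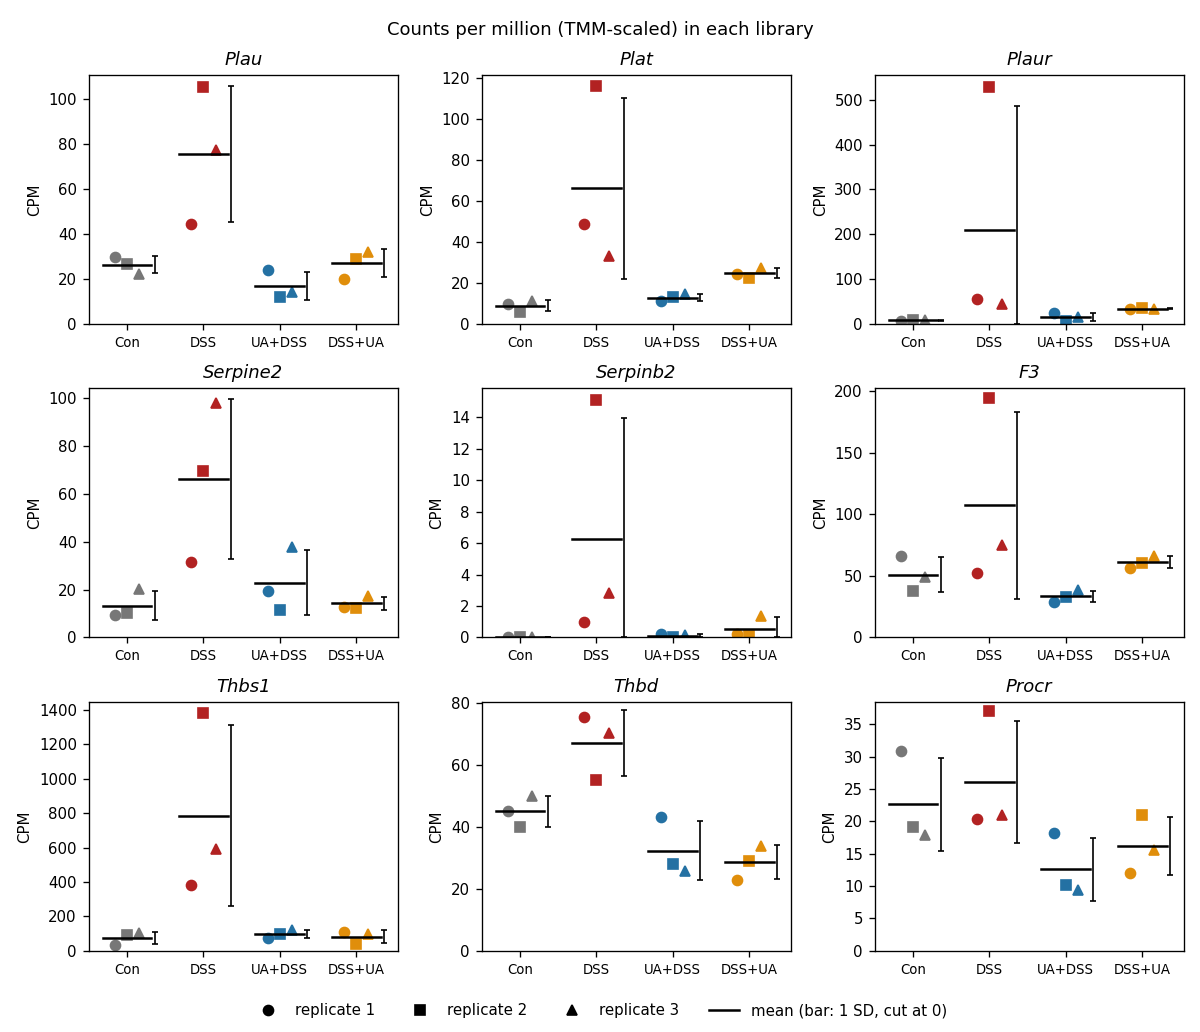
CPM of the 9 genes in each of the 12 libraries (1 panel per gene, linear axes that differ between panels). Marker shape gives the replicate number, the line the group mean and the bar 1 SD, cut at 0; the single high DSS point of Plaur (529 CPM), F3 (194 CPM) and Thbs1 (1380.2 CPM) is DSS 2.

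Both inhibitors rose in DSS, and DSS 2 held 8.04-fold the mean of the other DSS libraries for Serpinb2 and 1.07-fold for Serpine2. Serpine2 (protease nexin-1, which blocks thrombin as well as the activators, ENSMUSG00000026249, 1:79794197-79861180) had 9.36, 10.2 and 20.3 CPM in Con and 31.3, 69.3 and 97.7 CPM in DSS. The groups did not overlap and the highest library was DSS 3. The log2 fold change of Serpine2 was 2.32 (SE 0.51, edgeR adjusted p = 0.00968), and without DSS 2 it was 2.28. Serpinb2 (plasminogen activator inhibitor 2, ENSMUSG00000062345, 1:107511423-107535478) had no count in any Con library, and 20, 302 and 53 counts (0.962, 15.1 and 2.80 CPM) in DSS. Against a floor of 3 counts over the Con group, Serpinb2 was at least 117-fold higher in DSS, and at least 34.3-fold higher without DSS 2 (edgeR adjusted p = 0.0118, and 0.0508 when only the 2 groups were fitted). Its exons overlap those of the neighbouring gene Serpinb10 on the same strand, which itself had 15 counts over the 12 libraries, and 10.4% of its stretches of 50 bases occur in other genes, so its counts are uncertain.

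Thbs1 rose in DSS, while F3 and Procr were not called and Thbd was higher in all 3 DSS libraries without passing the threshold. Thbs1 (thrombospondin 1, ENSMUSG00000040152, 2:118111876-118127133) had 33.1, 90.2 and 101 CPM in Con and 384, 1380.2 and 590.4 CPM in DSS. The lowest DSS library was far above the highest Con library, and the lowest of all was Con 1. The gene overlaps Gm29233 on the opposite strand, which had no counts. The log2 fold change of Thbs1 was 3.39 (SE 0.59, edgeR adjusted p = 0.00401), and without DSS 2 it was 2.71. F3 (tissue factor, ENSMUSG00000028128, 3:121723537-121735048) had 65.8, 37.9 and 49.2 CPM in Con and 52.5, 194 and 74.9 CPM in DSS. DSS 1 lay within the Con range and DSS 2 far above it. The log2 fold change of F3 was 1.07 (SE 0.40, edgeR adjusted p = 0.0687). It was 0.32 without DSS 2 and 1.40 without DSS 1, where it passed (adjusted p = 0.0227), as it did by DESeq2 (0.0344).

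Neither anticoagulant receptor was called in DSS against Con. Thbd (thrombomodulin, the endothelial cofactor with which thrombin activates protein C, ENSMUSG00000074743, 2:148404466-148408188) had 45.0, 40.1 and 50.1 CPM in Con and 75.6, 55.2 and 70.4 CPM in DSS. All 3 DSS libraries were above all 3 Con libraries, and DSS 2 was the lowest of the DSS group, at 0.756 of the mean of the other two. The log2 fold change was 0.57 (SE 0.22, edgeR adjusted p = 0.0766, and 0.0462 without UA+DSS 1, which enters through the shared spread). Procr (the receptor that presents protein C to thrombin and thrombomodulin, ENSMUSG00000027611, 2:155751117-155755471) had 30.8, 19.1 and 17.9 CPM in Con and 20.3, 37.0 and 20.9 CPM in DSS. The groups overlapped, with a log2 fold change of 0.20 (SE 0.35, edgeR adjusted p = 0.685) that was -0.14 without DSS 2.

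Of the 9 genes, 6 were called changed in DSS against Con, all 6 raised, where 26.5% of the 17658 tested genes were called and 13.9% were called raised. All 9 passed the filter on low counts, Serpinb2 only through its DSS libraries, and 5 of the other 8 were called. The DSS and Con libraries did not overlap for 7 of the 9 genes, Serpinb2 among them, against 41.3% of all tested genes. The median log2 fold change was 2.32 over the 9 genes, Serpinb2 included, and -0.03 over all genes tested. Passing the filter through DSS favours a lack of overlap and a high fold for Serpinb2. Plau, Plat, Plaur, Serpine2 and Thbs1 stayed under 0.05 in each of 20 alternative settings (19 for Plaur, to which DESeq2 gave no adjusted p), at adjusted p of at most 0.037, 0.0283, 0.0421, 0.0424 and 0.0303.

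With UA given from before DSS, 7 of the 9 genes were lower than in DSS and none higher: Plau, Plat, Plaur, Serpinb2, F3, Thbs1 and Thbd. Without Serpinb2, which passed the filter through DSS alone, it was 6 of 8. Over all tested genes 18.7% were called, 10.5% lowered and 8.21% raised. Plau had 24.0, 12.1 and 14.3 CPM in UA+DSS 1, 2 and 3, all below the lowest DSS library (44.4 CPM), and the log2 fold change was -2.17 (SE 0.34, edgeR adjusted p = 0.00825). Plat had 11.1, 13 and 14.6 CPM in UA+DSS, a narrow band just above the Con libraries. Its log2 fold change against DSS was -2.35 (SE 0.41, edgeR adjusted p = 0.00998). Plaur had 25.5, 7.62 and 14.5 CPM in UA+DSS, and its log2 fold change was -3.73 (SE 0.88, edgeR adjusted p = 0.0199). The lowest DSS value of Plaur, 45.1 CPM, remained above all of them. Serpinb2 had 3, 0 and 3 counts in UA+DSS, so that its CPM in DSS was 52.8-fold that in UA+DSS (95% interval of the counting error 24.0 to 145, edgeR adjusted p = 0.0326) and 15.4-fold (6.76 to 43.4) without DSS 2.

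F3, which had not been called between DSS and Con, had 28.8, 32.7 and 38.2 CPM in UA+DSS, the lowest mean of the 4 groups (33.3 ± 4.73 CPM, SD, n = 3). All 3 values lay below the 52.5 CPM of DSS 1, and the log2 fold change of F3 was -1.69 (SE 0.41, edgeR adjusted p = 0.0200). Thbs1 had 74.1, 98.1 and 119 CPM in UA+DSS, near the Con range and far under DSS, with a log2 fold change of -3.01 (SE 0.58, edgeR adjusted p = 0.0121). Thbd had 43.3, 27.9 and 25.7 CPM in UA+DSS, and its log2 fold change was -1.05 (SE 0.22, edgeR adjusted p = 0.0145). Serpine2 had 19.4, 11.4 and 37.9 CPM, and UA+DSS 3 reached into the DSS range, at a log2 fold change of -1.53 (SE 0.50, edgeR adjusted p = 0.0544). Without UA+DSS 3 that change was -2.11 (adjusted p = 0.0407), without DSS 1 it was -1.87 (0.036), and Serpine2 also passed by DESeq2 (0.0121) and limma-voom (0.0481). For Procr the libraries held 18.2, 10.2 and 9.36 CPM, all under the lowest DSS library (20.3 CPM), and the log2 fold change was -1.05 (SE 0.35, edgeR adjusted p = 0.0569). Procr passed without Con 1, UA+DSS 1 or DSS+UA 2 (adjusted p = 0.0446, 0.0395 and 0.0475), by DESeq2 (0.024) and with library size only (0.0405).

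For UA+DSS against DSS, 8 of the 9 genes did not overlap (7 of 8 without Serpinb2), where 42.8% of all tested genes did not. The median log2 fold change of the 9 genes, Serpinb2 included, was -2.17 against -0.02 over all genes. Without DSS 2 the log2 fold changes were -1.86 (Plau), -1.67 (Plat), -1.67 (Plaur, adjusted p = 0.0253), -0.94 (F3, 0.0355), -2.33 (Thbs1) and -1.18 (Thbd), and Serpinb2 lost its call (0.076). Without UA+DSS 2 Plau alone was called (log2 fold change -1.98, adjusted p = 0.0449), and the others were at -2.35 (Plat, 0.0544), -3.39 (Plaur, 0.0924), -5.11 (Serpinb2, 0.12), -1.67 (F3, 0.0845), -3.02 (Thbs1, 0.0636) and -0.96 (Thbd, 0.0732). Leaving out UA+DSS 1 gave F3 -1.59 (0.0615) and Serpinb2 -6.11 (0.0826), and leaving out UA+DSS 3 gave Plaur -3.67 (0.07), F3 -1.80 (0.0535) and Serpinb2 -5.95 (0.0984). Plaur and F3 also lost their calls when the 2 groups were fitted alone (0.0724 and 0.0681), Plaur and Serpinb2 with no filter (0.0602 and 0.0828) and Serpinb2 by limma-voom (0.0579). With the colon position score as a covariate 0 of the 9 genes were called by edgeR (6 at an unadjusted p under 0.05). The log2 fold changes were -2.07 (Plau, SE 0.52, adjusted p = 0.105), -2.07 (Plat, SE 0.66, 0.142), -4.14 (Plaur, SE 1.41, 0.159), -1.31 (F3, SE 0.62, 0.248), -4.19 (Thbs1, SE 0.79, 0.074) and -0.97 (Thbd, SE 0.36, 0.172). Each SE was larger than without the score. The share of all genes called in this fit, or in those that leave out a library, is not given here. A loss of calls particular to these genes therefore cannot be told apart from one over all genes.

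**Figure D3:**
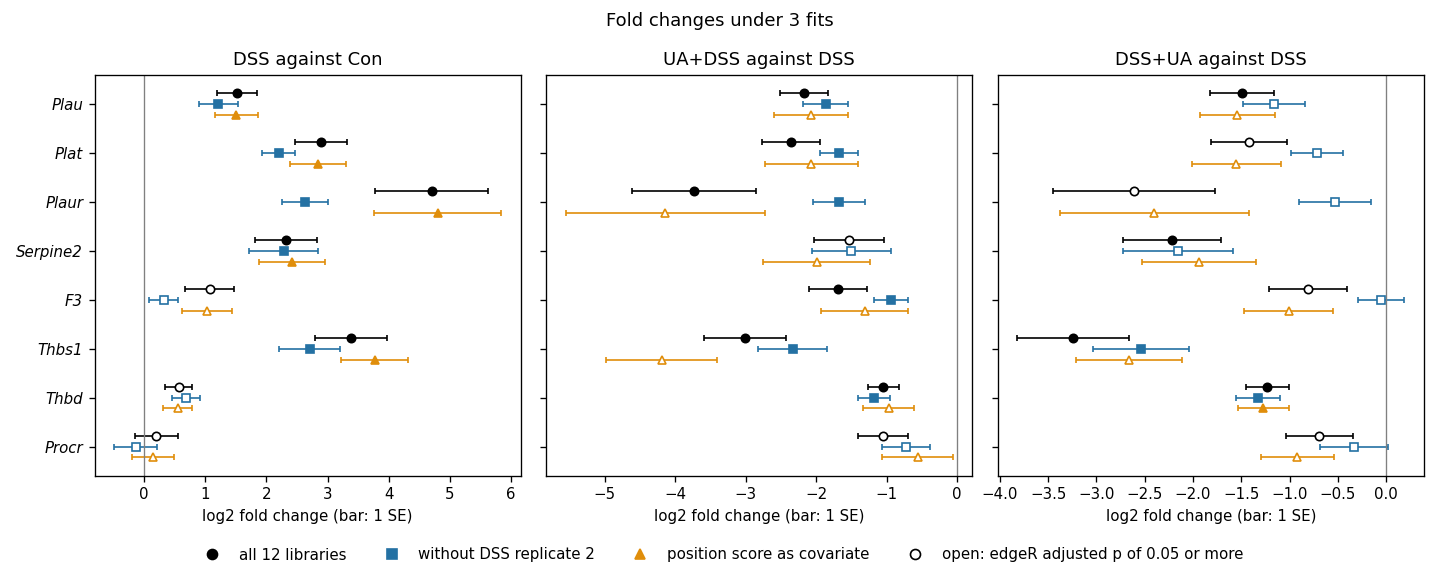
Log2 fold changes of 8 genes (Serpinb2, at 0 in Con, is left out) in DSS against Con, UA+DSS against DSS and DSS+UA against DSS, in 3 panels whose horizontal scales differ. Black points use all 12 libraries, blue points leave out DSS 2 and orange points add the position score; bars are 1 SE and open points have an adjusted p of 0.05 or more. Plaur moves most without DSS 2, from 4.70 to 2.63 against Con.

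With UA begun after DSS, Plau, Serpine2, Thbs1 and Thbd were lower than in DSS, 4 of the 9 genes and none raised, where 7.54% of genes were called, 5.0% lowered and 2.54% raised. This comparison used the same 3 DSS libraries as the one before, so the 2 are not independent. Thbs1 had 109.8, 41.0 and 98.5 CPM in DSS+UA 1, 2 and 3, about the range of Con, and its log2 fold change was -3.24 (SE 0.58, edgeR adjusted p = 0.0193). Serpine2 had 12.9, 12.4 and 17.4 CPM, well under the lowest DSS library (31.3 CPM), with a log2 fold change of -2.22 (SE 0.51, edgeR adjusted p = 0.0340). Plau had 20.1, 28.8 and 31.9 CPM, spread around the Con range, with a log2 fold change of -1.49 (SE 0.33, edgeR adjusted p = 0.0302). Thbd had 22.9, 29.1 and 33.9 CPM in DSS+UA, below every Con and every DSS library. Its log2 fold change against DSS was -1.23 (SE 0.22, edgeR adjusted p = 0.0192).

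Plat and Plaur held a middle level in DSS+UA. Plat had 24.3, 22.4 and 27.3 CPM and Plaur 34.2, 35.8 and 33.0 CPM, in both cases below every DSS library and above every Con and UA+DSS library. Against DSS their log2 fold changes were -1.42 (Plat, SE 0.39, edgeR adjusted p = 0.0513) and -2.61 (Plaur, SE 0.84, 0.0742). They were -0.72 and -0.53 without DSS 2, and Plat passed without DSS 3 (0.0312), by DESeq2 (0.00734) and with library size only (0.048), and Plaur without DSS 1 or DSS 3 (0.0496 and 0.0411). F3 had 56.3, 60.7 and 66.2 CPM, inside the DSS range, at a log2 fold change of -0.81 (SE 0.40, edgeR adjusted p = 0.196) that was -0.05 without DSS 2. Procr had 12.0, 21 and 15.6 CPM and overlapped DSS, at a log2 fold change of -0.69 (SE 0.35, edgeR adjusted p = 0.209). Serpinb2 had 4, 1 and 25 counts in DSS+UA, and its CPM in DSS was 11.1-fold that level (95% interval of the counting error 7.67 to 16.7, edgeR adjusted p = 0.106, DESeq2 0.0267) and 3.26-fold (2.10 to 5.17) without DSS 2. DSS+UA 3 alone, at 1.39 CPM, reached the DSS range.

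In DSS+UA against DSS, 6 of the 9 genes did not overlap, where 34.7% of all tested genes did not, and the median log2 fold change was -1.49 against 0.02 over all genes. Calls were lost when libraries were left out, most of them at a like fold. Plau was at -1.16 without DSS 2 (adjusted p = 0.0864) and at -1.30, -1.57 and -1.61 without DSS+UA 1, 2 and 3 (0.0646, 0.0854 and 0.101), and its adjusted p was 0.0659 when the 2 groups were fitted alone. Serpine2 was at -2.16 and -1.81 without DSS 2 and 3 (0.0821 and 0.0567), at -2.21 without UA+DSS 1 (0.0542), at -2.13, -2.16 and -2.37 without DSS+UA 1, 2 and 3 (0.0702, 0.118 and 0.108) and at -2.19 with no filter (0.0675). Thbs1 was at -2.95 and -3.37 without DSS+UA 2 and 3 (0.0647 and 0.0929) and -3.29 in a fit of the 2 groups (0.0512), and stayed called without DSS 2 (-2.54, 0.0342). Thbd was at -1.28 and -1.35 without DSS+UA 2 and 3 (0.0602 and 0.0724) and was the single gene that stayed called with the position score as a covariate (log2 fold change -1.27, adjusted p = 0.0497), beside Thbs1 at -2.66 (0.0545), Plau at -1.54 (0.0696) and Serpine2 at -1.94 (0.092).

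The UA groups were also set against Con, where the counts lay near or under those of all genes. For UA+DSS against Con edgeR called 0 of the 9 genes and 0.00566% of all genes, and 1 of the 9 did not overlap against 20.6% of all genes. Procr had an unadjusted p under 0.05 (log2 fold change -0.85, edgeR adjusted p = 0.377), and DESeq2 and limma-voom also called 0, each with 2 genes at an unadjusted p under 0.05. For DSS+UA against Con, 18.1% of all genes were called (9.13% raised, 8.95% lowered) and 38.9% did not overlap. Of the 9 genes 4 did not overlap and only Plat was called, at 24.7 ± 2.46 CPM in DSS+UA and 8.92 ± 2.75 CPM in Con (SD, n = 3, log2 fold change 1.47, SE 0.40, edgeR adjusted p = 0.0301). Plat lost this call without Con 1, 2 or 3 (adjusted p = 0.0536, 0.0877 and 0.057) and without DSS+UA 1, 2 or 3 (0.064, 0.0536 and 0.0878), at log2 fold changes of 1.24 to 1.65, and by limma-voom (0.0516) and with the position score (0.147). Plaur was 34.3 ± 1.36 against 8.09 ± 1.55 CPM with no overlap (log2 fold change 2.08, SE 0.83, edgeR adjusted p = 0.1), and without DSS 2, whose spread the fit shares, its adjusted p was 0.00433. Thbd was lower in DSS+UA than in Con with no overlap, at a log2 fold change of -0.65 (edgeR adjusted p = 0.0621, and 0.0436 without UA+DSS 1). Between UA+DSS and DSS+UA, where 16.8% of all genes were called (7.54% raised, 9.23% lowered) and 45.3% did not overlap, edgeR called 0 of the 9, and 3 did not overlap. Plat had an unadjusted p under 0.05 there (log2 fold change -0.93, edgeR adjusted p = 0.122). DESeq2 and limma-voom also called 0, with 2 and 1 at an unadjusted p under 0.05.

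DSS had the highest mean of all 9 genes (without DSS 2, Procr at 20.6 CPM was under Con at 22.6), and the groups below it ranked differently from gene to gene. For Plat and Plaur the order was DSS, DSS+UA, UA+DSS, Con, with no neighbours in it called different, and Serpinb2 ranked likewise. Plau fell from DSS to DSS+UA, a called step, and then ran Con (26.2 ± 3.79 CPM) and UA+DSS (16.8 ± 6.32 CPM) without further called steps. Thbs1 ran DSS (785 ± 526 CPM), UA+DSS (97.1 ± 22.5), DSS+UA (83.1 ± 36.9) and Con (74.8 ± 36.5), and only the first step was called. Serpine2 had the order DSS, UA+DSS, DSS+UA, Con with no neighbours called different. For F3 it was DSS, DSS+UA, Con, UA+DSS. Thbd and Procr had Con in the second place, above both UA groups, and DSS+UA (28.7 ± 5.53 CPM) was the lowest for Thbd and UA+DSS (12.6 ± 4.86 CPM) for Procr.

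Per kilobase of exon, which allows levels of different genes to be set side by side, F3 led in Con at 20.2 CPM per kb, followed by Thbs1 (12.3), Thbd (12.1), Plau (11.1) and Procr (11.1). Plaur (3.09), Serpine2 (1.60) and Plat (1.43) were low and Serpinb2 was at 0. In DSS the order of these levels began with Thbs1 (129 CPM per kb) and Plaur (80.2), ahead of F3 (42.4), Plau (31.9), Thbd (18.0) and Procr (12.8). Plat (10.6) and Serpine2 (7.98) stayed low per length although both rose. Without DSS 2 the order in DSS changed to Thbs1 (80.2 CPM per kb), Plau (25.6), F3 (25.2), Thbd (19.6), Plaur (19.2), Procr (10.1), Serpine2 (7.79) and Plat (6.59), so that the second place of Plaur rested on DSS 2.

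Each gene was set beside the gene with the most similar profile, by the root mean square difference of centred log2 CPM over the 12 libraries, among the 13718 genes whose log2 CPM averaged 1 or more (13719 for Serpinb2). The nearest gene to Plaur was Fgr (0.299), a Src-family kinase of myeloid cells, and to Serpine2 it was Col4a2 (0.197), a chain of basement membrane collagen. Plat was nearest to Sema6b (0.252), F3 to Plk3 (0.258), Thbs1 to Chst11 (0.472), Thbd to Zbtb46 (0.225), Procr to Bmp4 (0.166), Plau to Gm14005 (0.327) and Serpinb2 to Slc7a11 (0.646). Among the 9 genes themselves, Thbd and Procr were nearest to each other (0.449) and so were Plau and F3 (0.493). No gene of the 9 was the nearest of all genes to another of them.

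Among 16 other plasminogen system genes, of which 14 were tested, 9 rose and 2 fell in DSS against Con (median log2 fold change 1.30), where 13.9% of all tested genes were raised and 12.6% lowered. Those raised were the plasminogen receptors Anxa2 and Eno1, the clearance receptors Lrp1 and Mrc2, the integrin chains Itgav, Itgb3 and Itgam, the protease inhibitor A2m, and the growth factor Hgf. A2m, with 1 count over the Con group, passed the filter on low counts only through mice given DSS, which favours a raised call. Hgf, a growth factor with the fold of plasminogen, had 47.5 ± 13.7 CPM in DSS and 3.23 ± 0.446 in Con (log2 fold change 3.88, SE 0.39, edgeR adjusted p = 0.000833), and Hgfac, the protease that activates it, had 47.2 ± 19.3 against 157 ± 13.1 CPM (-1.73, SE 0.30, 0.00381). Lrp1, which takes up protease and inhibitor complexes, had 499 ± 127 against 184 ± 18.3 CPM (log2 fold change 1.44). The other gene lowered was Plgrkt, a plasminogen receptor. In UA+DSS against DSS 3 of the 14 were raised and 7 lowered (median -0.88, all genes 8.21% and 10.5%), and in DSS+UA against DSS 2 were raised and 5 lowered (median -1.24, all genes 2.54% and 5.0%). Hgf (-2.52 and -2.48) and Lrp1 (-0.75 and -1.90) fell and Hgfac (1.68 and 1.15) rose in both. Serpinf2, another gene of this list raised in UA+DSS against DSS, was near the floor, at 43 counts over UA+DSS and 11 over DSS. Hgf lost its call in DSS+UA without DSS+UA 3 (adjusted p = 0.0528), Lrp1 in UA+DSS without UA+DSS 1, 2 or 3 (0.062, 0.0873 and 0.071), and Hgfac in UA+DSS without UA+DSS 2 (0.0538) and in DSS+UA without Con 2 or 3, DSS 2, any UA+DSS library or DSS+UA 2 or 3 (0.0511 to 0.163). Plg itself, plasminogen, which the liver makes, had 1 count over the 12 libraries and was not tested, nor was Cpb2.

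Of 26 coagulation genes 16 were tested, and 7 rose (F5, F7, F10, F13a1, Vwf, Tfpi and Pros1) and 2 fell (Ggcx and Vkorc1, enzymes of the vitamin K cycle) in DSS against Con (median log2 fold change 0.55), beside 13.9% raised and 12.6% lowered over all genes. The 3 fibrinogen chains were not among the genes tested. F7 and F10, with 5 and 8 counts over the Con group, passed the filter on low counts only through mice given DSS. This favours a raised call. F13a1, the subunit of factor XIII that cross-links fibrin and that macrophages make, had 101 ± 24.8 CPM in DSS and 12.7 ± 5.05 in Con (log2 fold change 2.99, SE 0.38, edgeR adjusted p = 0.00133). Vwf, the platelet-binding protein of endothelium, had 58.9 ± 9.01 against 30.5 ± 1.83 CPM (log2 fold change 0.95), and Pros1, the cofactor of protein C, 66.0 ± 9.12 against 29.4 ± 8.19 CPM (1.16). In UA+DSS against DSS 6 of the 16 were lowered and 2, F2 and Proc, raised (median -1.05, all genes 10.5% and 8.21%), and in DSS+UA against DSS 5 were lowered (median -1.02, all genes 5.0%). F2 was near the floor, at 60 counts over UA+DSS, 4 over DSS, 20 over Con and 3 over DSS+UA. It passed the filter on low counts only with its UA+DSS libraries, which favours a raised call there. F13a1 (-3.13 and -3.24), Vwf (-0.96 and -1.83) and Pros1 (-1.14 and -1.01) were lowered in both. Vwf lost its call in UA+DSS without UA+DSS 2 (adjusted p = 0.0507) and Pros1 in DSS+UA without DSS+UA 2 or 3 (0.0703 and 0.0975). With the position score as a covariate these 3 genes and Hgf, Lrp1 and Hgfac lost their calls in UA+DSS against DSS, at log2 fold changes of -2.34 (F13a1), -0.94 (Vwf), -0.63 (Pros1), -2.59 (Hgf), -1.01 (Lrp1) and 1.70 (Hgfac) and adjusted p of 0.0929 to 0.154. F7 and F10, the partners of tissue factor, chosen after their values were seen, had 5 and 8 counts over the Con group and 167 and 3347 over the DSS group, of which DSS 2 held 142 and 3077, so that DSS 1 and DSS 3 together held 25 and 270.

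Of the 4 protease-activated receptors, through which thrombin and other proteases signal, F2rl3 was raised in DSS against Con (5.12 ± 2.51 against 1.78 ± 0.582 CPM, log2 fold change 1.52, SE 0.48, edgeR adjusted p = 0.0381). Without any 1 Con library, DSS 2, DSS 3 or UA+DSS 3 its adjusted p was 0.0535 to 0.111. Over all tested genes 13.9% were raised in this comparison. In UA+DSS and DSS+UA against DSS none of the 4 was called by edgeR or limma-voom, 3 had an unadjusted p under 0.05 in each, and DESeq2 called 2 and 1. F2rl3 had log2 fold changes of -1.43 and -1.41 (adjusted p = 0.0589 and 0.0833, and 0.0335 and 0.0447 without DSS 1). Of 5 tested genes among the other thrombospondins and their receptors, 1 rose in DSS against Con, Cd47 (187 ± 68.4 against 77.5 ± 8.14 CPM, log2 fold change 1.27, SE 0.22, edgeR adjusted p = 0.00382). It fell in UA+DSS (-1.09, adjusted p = 0.0129, and 0.0645 without UA+DSS 2) and was at -0.39 in DSS+UA (0.256), where Thbs2 and Cd36 were lowered. Thbs2, Thbs3 and Thbs4 were not called in DSS against Con. Over all tested genes 13.9% were raised in DSS against Con, and 10.5% (UA+DSS) and 5.0% (DSS+UA) were lowered against DSS. In lists of 4 and 5 tested genes, counts this small do not set either list apart from all genes.

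**Figure D4:**
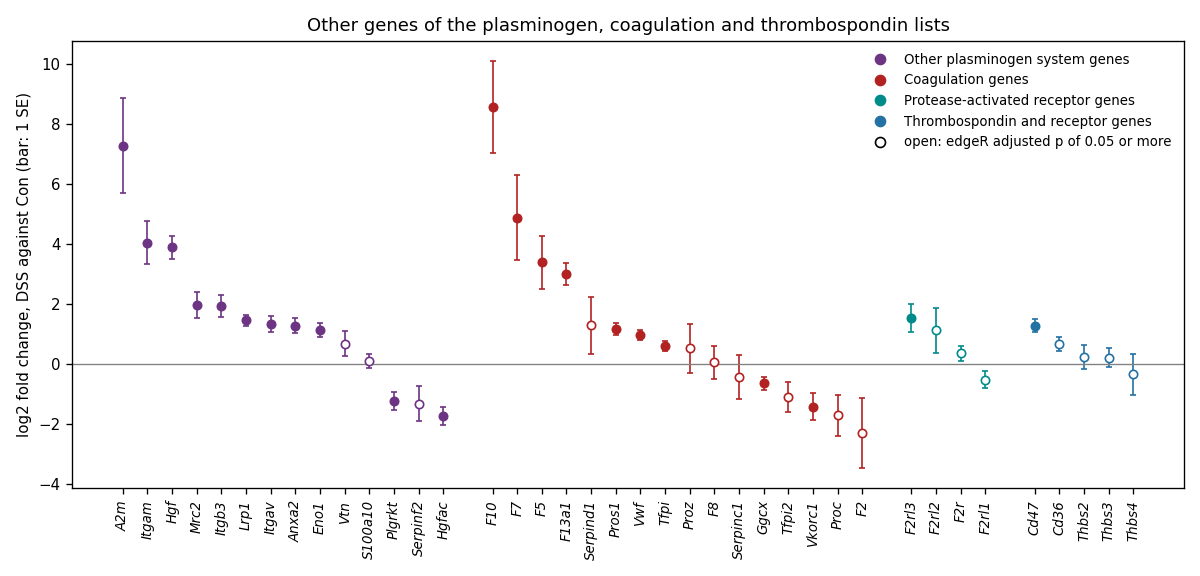
Log2 fold changes in DSS against Con of the tested genes of the other plasminogen, coagulation, protease-activated receptor and thrombospondin lists. Each point is 1 gene and the bar 1 SE, and open points have an adjusted p of 0.05 or more. A2m, F7 and F10 rest on 1, 5 and 8 counts in Con. Most plasminogen genes lie above 0, and Hgfac and Plgrkt are the filled points of that list below it.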

How the data were processed

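Colon RNA of 12 mice, 3 per group, was sequenced on a Hiseq-2500. The authors mapped the reads to GRCm38, took the counts of genes from Hisat2 and deposited them, as whole-number counts for each Ensembl gene and not normalized. The submitters' processing notes also name FastQC and Cuffdiff. Not given in the sources used here were versions, strand use, the annotation release and how Hisat2, an aligner, was used to count. Labels name Trizol and the methods RNeasy. Of 54532 genes, 54495 carry a name in GENCODE M21, and the rest hold 0.00364% of the counts. Total counts were 15566216 to 19498383 (median 18569669), and intervals and floors reflect counting alone.

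The filter filterByExpr of edgeR 4.0.16 (R 4.3.3) left 17658 genes, TMM factors were 0.871 to 1.09, and all 12 libraries entered 1 robust quasi-likelihood fit (biological coefficient of variation 0.352). A gene was called at a Benjamini-Hochberg adjusted p under 0.05 over all tested genes. The model was tested on simulated data, drawn without an outlying library such as DSS 2, and the outcome is not given here. The p-values rest on the spread between libraries within groups, estimated over all 4 groups together and moderated across genes. Log2 CPM used a prior count of 2. Position and kilobases of exon came from GENCODE M21. Alternatives were library size or relative log expression factors, no filter, DESeq2 1.42.0, limma-voom (limma 3.58.1), a fit of the 2 groups, the replicate number as a block, the position score as a covariate and leaving out each library.

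The 9 genes, the gene lists and the markers were chosen with earlier results of these data known. Named beside them are the 3 genes of each list with the smallest p among those called in DSS against Con, and the nearest gene to each of the 9. The result for 1 other gene is left out of its list.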

Additional observations from a re-analysis of the deposited data

How the results depend on the processing

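Each of 54 results (9 genes in 6 comparisons) was recomputed under 20 alternatives, 12 of which leave out 1 library. The 18 called results kept their direction in every alternative, and 5 kept their call in every one that gave a value. Over all values 967 stayed on their side of the threshold, 57 lost a call, 30 gained one and 17 changed sign, all 17 in results that were not called. The number of genes called without 1 library was 6 to 7 (DSS against Con), 1 to 8 (UA+DSS against DSS), 0 to 5 (DSS+UA against DSS), 0 to 3 (DSS+UA against Con, and UA+DSS against DSS+UA) and 0 (UA+DSS against Con). With the position score as a covariate it was 0 for UA+DSS and 1 for DSS+UA against DSS, and 0 for DSS+UA against Con. When the 2 groups were fitted alone it was 2 for DSS+UA against each of DSS, Con and UA+DSS. In DSS+UA against Con it was 0 by limma-voom and 3 by DESeq2. The share of all genes called under each alternative is not given here, so these counts do not set the 9 genes apart from others. The cause was not tested. Deviations of same-numbered libraries from their group means were weakly correlated (-0.216 to 0.187 over 18 pairs, 5 of them over 0.1). With 3 libraries per group these values cannot show whether the numbers pair the mice. With the replicate number as a block, 4 calls were lost and 1 was gained, and DSS+UA against Con had 0 calls.

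The log2 fold changes that changed sign were, in DSS+UA against Con, those of Plau with library size only and with the position score (-0.03 each) and those of Plau (-0.09 to 0.22), Serpine2 (-0.09 to 0.55) and Thbs1 (-0.20 to 0.48) without 1 library. In UA+DSS against DSS+UA they were those of Serpine2 (-0.05), Thbs1 (-1.53) and Procr (0.36) with the position score, and of Thbs1 (-0.12 to 0.46) and Thbd (-0.10 to 0.30) without 1 library. Thbs1 in UA+DSS against Con was -0.42 with the position score, and Procr in DSS against Con was -0.14 without DSS 2 (up to 0.49 without another library). Serpinb2 is at 0 in Con, at this depth a level under 3 counts over the group, and could not be tested in 3 fits of 2 groups, and DESeq2 gave no adjusted p for the 6 results of Plaur.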

Other observations

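The ratio of Plaur to Plau within a library, looked at after the values were seen and not tested, was 0.212, 0.341 and 0.399 in Con 1, 2 and 3. It was 1.25, 5.03 and 0.585 in DSS, 1.06, 0.629 and 1.01 in UA+DSS and 1.70, 1.24 and 1.03 in DSS+UA, so that all 9 libraries of mice given DSS lay above the Con libraries, with or without UA. The ratio of Plat to Plau was 0.332, 0.218 and 0.498 in Con, 1.10, 1.10 and 0.433 in DSS, 0.463, 1.07 and 1.02 in UA+DSS and 1.21, 0.778 and 0.854 in DSS+UA. Here DSS 3 and UA+DSS 1 lay within the Con range and the other 7 libraries of mice given DSS above it. Plau itself was not called different from Con in either UA group (edgeR adjusted p = 0.458 in UA+DSS and 0.944 in DSS+UA, which does not show the levels to be alike). The ratios use CPM and not CPM per kilobase, so a value of 1 has no meaning of its own.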
